A study of Mus musculus with 30 samples.

Results

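The translation initiation and elongation factors are described here across the cell cycle of growing mouse C2C12 myoblasts. They are the 68 genes, of 46078 in the deposited table, whose symbol begins with Eif and a digit or with Eef1 or Eef2, with 7 pseudogenes left out. C2C12 is an established line of mouse muscle precursor cells. The cells were grown in 20% serum, stained for 15 minutes with Hoechst, which binds DNA, and sorted into a G1, an S and a G2/M group. The labels give all 3 groups the same line, medium and stain, and set them apart by phase and by a lot mark in the S titles. RNA-seq gave 6 columns of fragment counts, 2 for each phase. The question the counts answer is how far the RNA level of each factor differs between G1, S and G2/M.

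Initiation factors bring the initiator tRNA and the small ribosomal subunit to the capped end of an mRNA, find the start codon and join the large subunit. The eIF2 complex carries the initiator tRNA, eIF2B recharges eIF2 with GTP, the eIF4 group binds the cap and unwinds the leader, and the large eIF3 complex bridges mRNA and ribosome. Elongation factors then deliver each aminoacyl-tRNA (eEF1A, recharged by the eEF1B subunits) and move the ribosome along (eEF2). In muscle precursors these factors set the capacity for protein synthesis, and translation is known to be adjusted when such cells grow, divide or become quiescent.

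Depth ran from 16109055 to 18103769 gene-assigned fragments per column. Columns of 1 phase carry replicate numbers, but no label says that separate cultures were used, and their differences were close to counting noise (chi-square over degrees of freedom of 1.00 (G1), 1.03 (S) and 1.15 (G2/M)). They were therefore summed and treated as 1 library per phase, although whether they are separate libraries is not stated and the marks L1 and L2 in their column names are not explained. Treated so, no difference has a replicate check and no p-value is given. Columns that do not overlap between phases are therefore no replicate check either. The share of all genes with such columns was not computed. Each ratio has an exact 95% binomial interval, printed in parentheses after its log2 value, that covers counting error only. Levels are in CPM, counts per 10⁶ fragments scaled by TMM, and a gene without a fragment could have had up to 0.0936 CPM (G1), 0.0837 CPM (S) or 0.0827 CPM (G2/M). Because of the lot mark, in both comparisons with S the effects of lot and of phase cannot be told apart. Of 8 mitotic genes, all 8 were at least 1.5-fold above G1 in G2/M and 7 were at least 1.5-fold higher in S than in G1, while 8 of 8 genes of the G1/S transition and DNA synthesis were lower in S than in G1, 5 of them by 1.5-fold or more. The 5 myoblast markers summed to 542.6 (G1), 482.0 (S) and 553.1 CPM (G2/M), with Des the largest part. They did not share a direction. Of the 4 measured, 3 were lower in S than in G1, Des by 1.46-fold, and Myf5 was 1.91-fold higher. Myod1 stayed under 10 CPM in each phase. Among 10 markers of other cell types, 7 had no fragment, the 10 summing to 0.0624 (G1), 1.09 (S) and 0.910 CPM (G2/M). In bulk libraries, fewer cells of a type and less RNA per cell cannot be told apart.

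The factors made up 2.41% of all fragments in G1 (2.41 to 2.42%), 2.33% in S (2.33 to 2.34%) and 2.56% in G2/M (2.55 to 2.57%). Their levels spanned more than 3 orders of magnitude. The highest level per length, in FPKM, which is CPM per kilobase of exon, was that of Eef1a1, which delivers aminoacyl-tRNA to the ribosome, at 1761 (G1), 1628 (S) and 1809 (G2/M). Eef2, the translocase, followed at 697 (G1), 613 (S) and 709 (G2/M). Eif5a, which helps the ribosome form difficult peptide bonds, stood at 526 (G1), 433 (S) and 533 (G2/M), and Eif4a1, the helicase that unwinds mRNA leaders, at 462 (G1), 401 (S) and 473 (G2/M). Eef1b2, a subunit that recharges eEF1A, stood at 425 (G1), 336 (S) and 381 (G2/M), and Eif3a, the largest scaffold subunit of eIF3, at 261 (G1), 307 (S) and 319 (G2/M). These were the 6 highest members by mean level per length, and they kept that order in each phase, except that Eif4b, with 286 FPKM, stood above Eif3a in G1. At the other end, Eif2d, a factor that can place the initiator tRNA without eIF2, had 2.46 (G1), 1.26 (S) and 1.13 (G2/M) FPKM, and the eIF2 kinase Eif2ak4 had 3.49 (G1), 2.26 (S) and 2.78 (G2/M) FPKM.

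**Figure D1:**
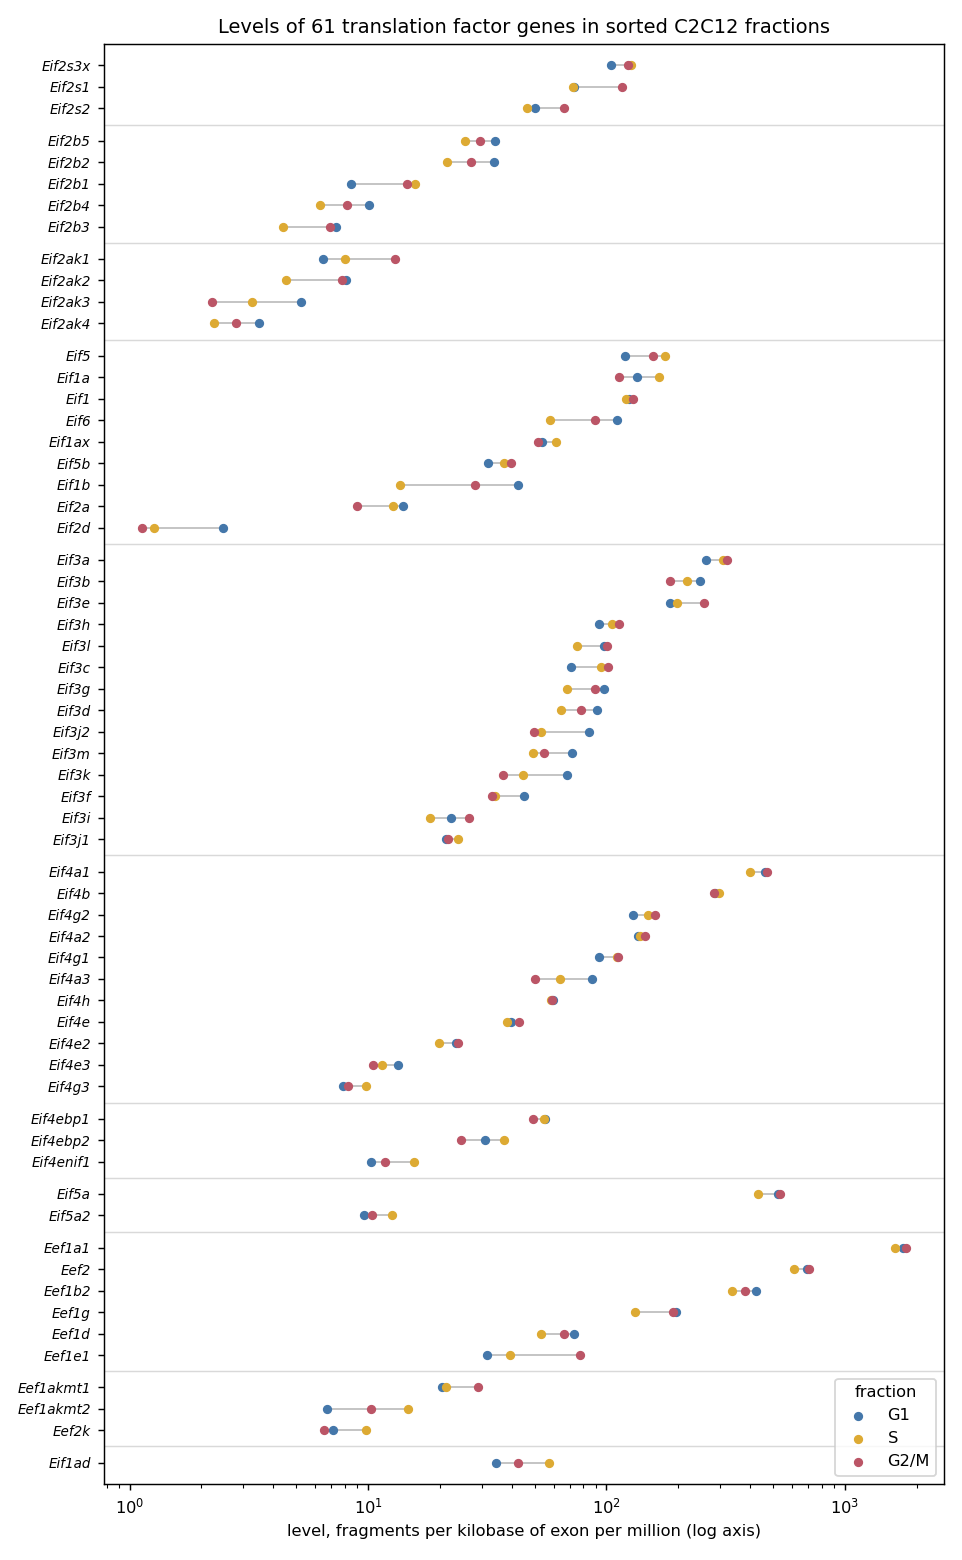
Level of each of the 61 measured factors (rows, grouped by role) on a log axis in FPKM, with 1 point for the summed library of each phase. Levels differ far more between genes than between phases: Eef1a1 lies at 1628 or higher in all 3 phases and Eif2d at 2.46 or lower.

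Among the 61 factors that reached 10 CPM in some phase, the level was highest in G1 for 25, in S for 14 and in G2/M for 22, and it was lowest in G1 for 20, in S for 26 and in G2/M for 15. Over the 9071 genes at the same minimum, the share highest in each phase was 36.4% (G1), 30.3% (S) and 33.3% (G2/M), and 30.9% were lowest in S. The highest phase exceeded the lowest by a median of 1.42-fold. It did so by 1.5-fold or more in 21 factors and by 2-fold or more in 5, which are Eef1akmt2, Eef1e1, Eif1b, Eif2ak3 and Eif2d. The highest of these in level was Eef1e1, whose phases ran from 32.7 to 80.1 CPM. The fold from lowest to highest phase was not computed over all genes, so these counts and their median have no background beside them.

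Between S and G1, 25 of 61 factors were higher and 36 lower in S, with a median log2 ratio of -0.11, where all 8773 genes at that minimum had a median of -0.01. At 1.5-fold, 4 factors were higher in S, where 18.5% of all genes were, and 11 were lower, where 18.3% of all genes were, so the share of factors that were lower was close to the background and the share that were higher was below it. The higher ones were Eef1akmt2, Eif2b1, Eif1ad and Eif4enif1, and the lower ones were Eif1b, Eif2d, Eif6, Eif2ak2, Eif2ak3, Eif2ak4, Eif2b2, Eif2b3, Eif2b4, Eif3j2 and Eif3k. Among the 47 factors that averaged 50 CPM or more, 2 were higher (11.5% of all such genes) and 3 lower (8.93%), with a median of -0.04.

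Between G2/M and S the balance leaned the other way. Of 60 factors, 37 were higher and 23 lower in G2/M, with a median log2 ratio of 0.10 against 0.01 over all genes. At 1.5-fold, 7 were higher in G2/M (16.1% of all genes) and 1 was lower (15.4% of all genes), or 7 and 0 when the libraries were scaled by size alone. The higher ones were Eif1b, Eef1e1, Eif2ak2, Eif2ak1, Eif2s1, Eif2b3 and Eif6, and the lower one was Eif4ebp2. Among the 48 factors that averaged 50 CPM or more, 4 were higher (7.12% of all such genes) and 1 lower (7.45%), with a median of 0.10.

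Between G2/M and G1 the factors were evenly split, 31 higher and 30 lower in G2/M, with a median log2 ratio of 0.02. At 1.5-fold, 5 were higher in G2/M (20.2% of all genes), namely Eef1e1, Eif2ak1, Eif2b1, Eif2s1 and Eef1akmt2. Without the first G1 column Eef1akmt2 was at 0.52 and no longer past 1.5-fold, and Eef1akmt1 was past it at 0.63 instead. Another 7 were lower (19.6% of all genes), namely Eif2ak3, Eif2d, Eif3k, Eif4a3, Eif3j2, Eif2a and Eif1b, and Eif1b was at -0.58, short of 1.5-fold, when libraries were scaled by size alone. Among the 47 that averaged 50 CPM or more, 3 were higher (12.4% of all such genes) and 3 lower (11.1%). The 3 comparisons share libraries, so a factor that is low in S enters as lower in S over G1 and as higher in G2/M over S.

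**Figure D2:**
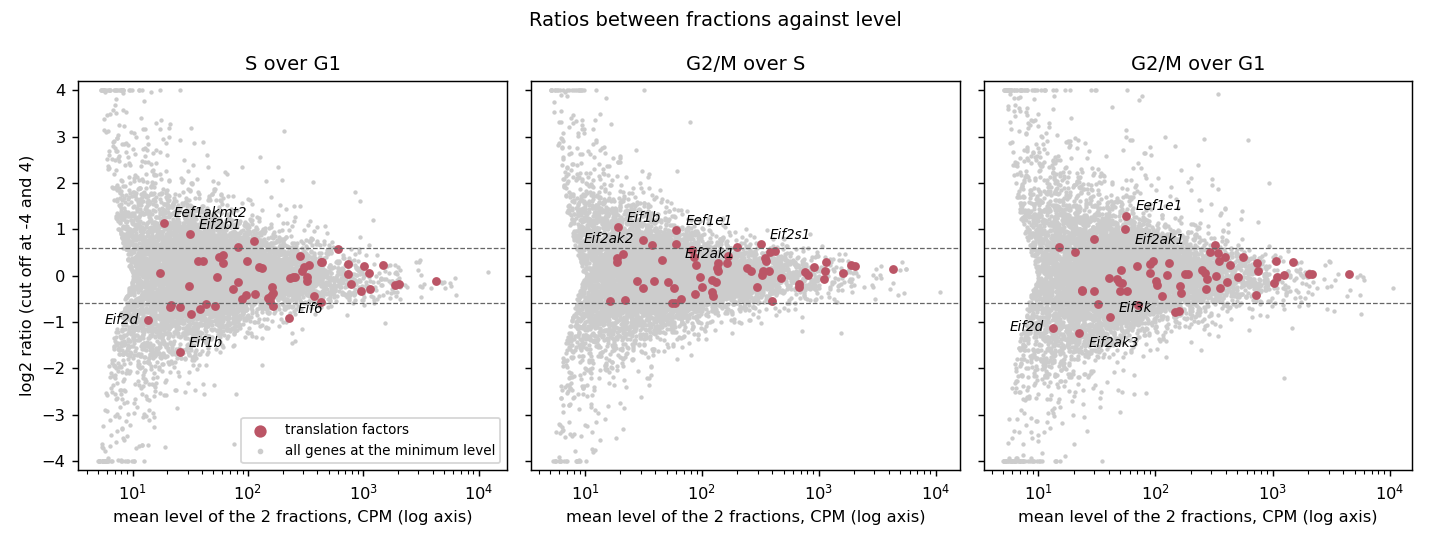
Log2 ratio of each gene (y axis) against its mean level in the 2 phases in CPM (log x axis), for S over G1, G2/M over S and G2/M over G1, with factors as large points, all genes at the minimum level as small points and dashed lines at 1.5-fold. The spread of all genes narrows with level, and the 5 factors with the largest ratios, named in each panel, lie mostly at low levels, with Eif6 in S over G1 and Eif2s1 in G2/M over S, at 395 CPM in G2/M, farthest to the right.

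The spread of ratios among all genes depended on level. With a mean under 50 CPM, 10 of 14 factors were past 1.5-fold between S and G1, where 52.1% of genes were. From 50 to 200 CPM it was 4 of 21 factors and 23.9% of genes. From 200 to 1000 CPM it was 1 of 19 factors and 10.5% of genes, and above 1000 CPM 0 of 7 factors and 5.21% of genes. The single factor from 200 to 1000 CPM was Eif6. Between G2/M and S the single factor from 200 to 1000 CPM was Eif2s1, of 18, where 7.05% of genes were past 1.5-fold. Between G2/M and G1 it was again Eif2s1, of 18, where 14.0% of genes were.

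Ratios in these libraries varied with the length of the gene's exons. Over the factors that averaged 50 CPM or more, the median log2 ratio in S over G1 was -0.36 in the shortest quartile of exon length (20 factors), -0.10 in the second (10 factors), 0.03 in the third (11 factors) and 0.23 in the longest (6 factors). Over all genes at that level it was -0.21, -0.07, 0.07 and 0.24 in the same order. Within a quartile single factors varied. In the shortest Eif6 stood at -0.92 and Eif1a at 0.30, and in the longest Eif4e2 stood at -0.24 and Eif4g1 at 0.25. In G2/M over G1 the medians of the factors ran from -0.14 in the shortest quartile to 0.27 in the longest, against -0.13 and 0.16 over all genes. The part of exon length in any single ratio was not tested.

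**Figure D3:**
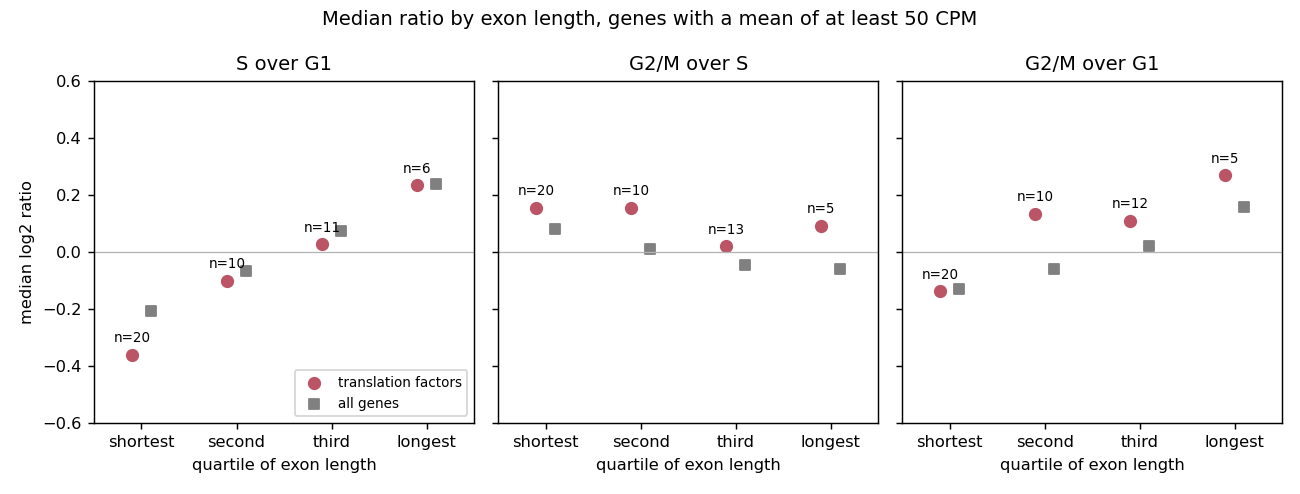
Median log2 ratio (y axis) by quartile of exon length (x axis) for factors (circles, with their number) and for all genes (squares) that averaged 50 CPM or more, in S over G1, G2/M over S and G2/M over G1. In S over G1 the medians of the factors climb from -0.36 to 0.23 and those of all genes from -0.21 to 0.24.

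All 3 measured subunits of the eIF2 complex were higher in G2/M than in G1, where 49.8% of all genes were. Only Eif2s1, the alpha subunit whose phosphorylation shuts down general initiation, was higher by 1.5-fold or more, where 20.2% of all genes were. Eif2s1 (ENSMUSG00000021116, GRCm38 chromosome 12 from 78861819 to 78887010) had 249 and 251 CPM (G1), 248 and 244 CPM (S) and 396 and 395 CPM (G2/M). It was 1.60-fold above S in G2/M, a log2 ratio of 0.68 (0.64 to 0.72), and 1.58-fold higher than in G1, 0.66 (0.62 to 0.70), while S and G1 differed by -0.02 (-0.06 to 0.02). Both G2/M columns lay above all 4 others. Eif2s2, the beta subunit, had 338 (G1), 312 (S) and 447 CPM (G2/M), a log2 ratio of 0.52 (0.48 to 0.55) in G2/M over S. Eif2s3x, the X-linked gamma subunit that binds GTP and the initiator tRNA, had 397 (G1), 485 (S) and 468 CPM (G2/M) and was lowest in G1, with 0.29 (0.26 to 0.32) in S over G1. Per length, the gamma subunit exceeded the beta subunit 2.08-fold (G1), 2.75-fold (S) and 1.85-fold (G2/M), and the 3 subunits together took 0.0975% (G1), 0.104% (S) and 0.132% (G2/M) of fragments. The Y-linked copy Eif2s3y had no fragment in any column.

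RNA of the exchange factor eIF2B, which turns spent eIF2 back to its active state, was lower in S than in G1 for 4 of 5 subunits. Of all genes, 49.6% were higher in S. Eif2b3 and Eif2b5 form its catalytic part, and Eif2b1, Eif2b2 and Eif2b4 form the regulatory part that senses phosphorylated eIF2. Eif2b3 had 47.6 (G1), 28.8 (S) and 45.4 CPM (G2/M). Eif2b2 had 63.9 (G1), 40.5 (S) and 50.8 CPM (G2/M), and Eif2b4 had 26.2 (G1), 16.4 (S) and 21.2 CPM (G2/M). Their log2 ratios in S over G1 were -0.73 (-0.84 to -0.61), -0.66 (-0.76 to -0.56) and -0.68 (-0.83 to -0.53) in that order, all past 1.5-fold, and Eif2b5 followed with -0.42 (-0.49 to -0.34). Of all genes, 18.3% were lower by 1.5-fold or more. Eif2b1, Eif2b3 and Eif2b4 averaged under 50 CPM, where 52.1% of all genes were past 1.5-fold in either direction. Eif2b1 (ENSMUSG00000029388, chromosome 5 from 124570213 to 124579131) went the other way, with 22.6 and 21.2 CPM (G1), 41.5 and 39.8 CPM (S) and 37.0 and 38.4 CPM (G2/M). It was 1.86-fold higher in S than in G1, 0.89 (0.76 to 1.02), and 1.72-fold above G1 in G2/M, 0.78 (0.65 to 0.92), and its G1 columns did not overlap with the other 4. The median over the 5 subunits was -0.66 in S over G1, 0.33 in G2/M over S and -0.20 in G2/M over G1. Per length the lowest subunit in each phase was Eif2b3 and the highest was Eif2b5, at 7.30 and 34.0 FPKM in G1.

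Of the 4 eIF2 kinases, each of which answers to its own kind of stress, Eif2ak1 was highest in G2/M and the other 3 in G1. Eif2ak1, the heme-regulated kinase (ENSMUSG00000029613, chromosome 5 from 143817788 to 143904251), had 36.8 and 37.0 CPM (G1), 44.5 and 46.6 CPM (S) and 72.5 and 74.5 CPM (G2/M). It was 1.99-fold above G1 in G2/M, 1.00 (0.90 to 1.10), and 1.61-fold higher than in S, 0.69 (0.60 to 0.78), so its level stepped up from phase to phase. Of its exon bases, 11.6% are shared with Aimp2 and Ankrd61 on the opposite strand, so its count is uncertain over those bases. Eif2ak3, the kinase of endoplasmic reticulum stress known as PERK (ENSMUSG00000031668, chromosome 6 from 70844515 to 70905245), stepped down instead, with 32.6 and 30.4 CPM (G1), 18.2 and 21.1 CPM (S) and 13.6 and 13.1 CPM (G2/M). It was 2.36-fold lower in G2/M than in G1, -1.24 (-1.40 to -1.08), and its columns did not overlap between any phases. It shares 8.05% of its exon bases with Gm43292 on the opposite strand. Eif2ak2, the double-stranded RNA kinase PKR, had 42.0 and 40.3 CPM (G1), 22.2 and 24.2 CPM (S) and 39.8 and 39.6 CPM (G2/M), low in S alone, with 0.78 (0.65 to 0.90) in G2/M over S and -0.83 (-0.96 to -0.70) in S over G1. Eif2ak4, the kinase GCN2 that responds to uncharged tRNA, had 26.2 and 25.9 CPM (G1), 16.9 and 16.7 CPM (S) and 20.8 and 20.7 CPM (G2/M), and its log2 ratio in S over G1 was -0.63 (-0.78 to -0.48). No kinase exceeded 73.5 CPM in a summed library, and at such levels the ratios of all genes spread widely.

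**Figure D4:**
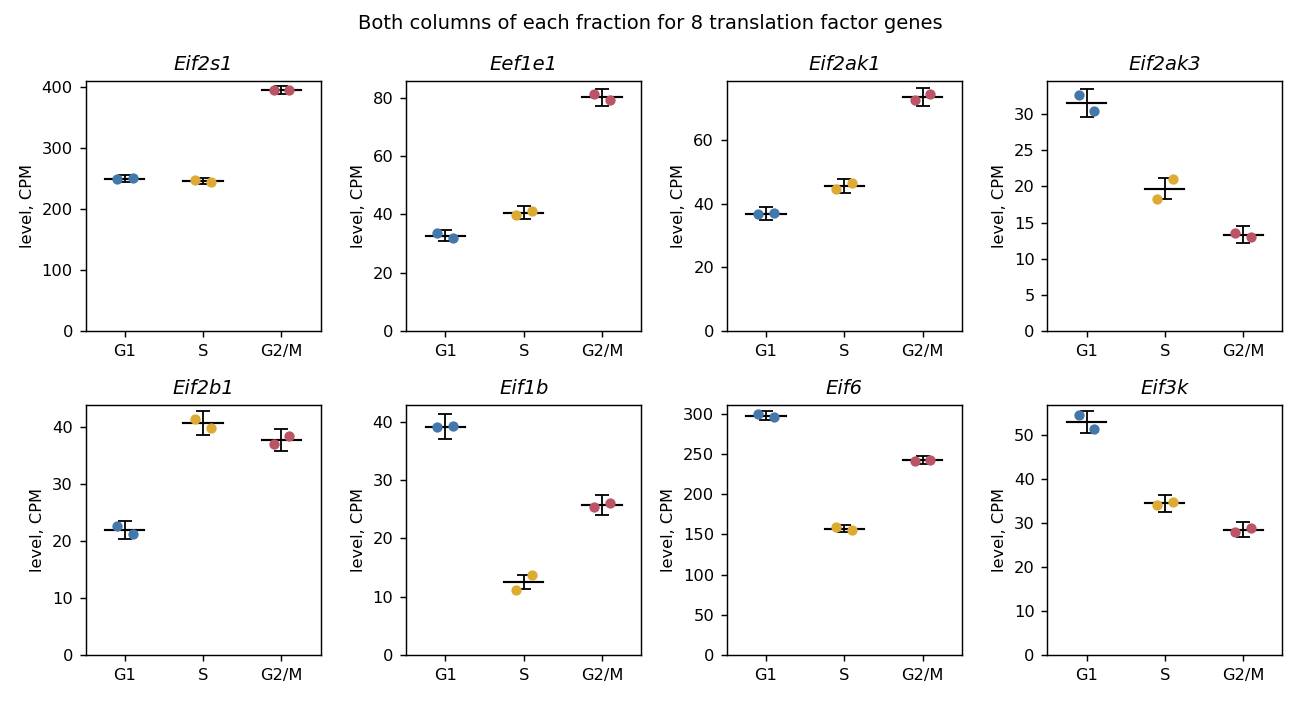
Level in CPM (y axis, from 0) of 8 factors in G1, S and G2/M, with points for the 2 columns, a bar for the summed library and its exact 95% counting interval. Eif2s1, Eef1e1 and Eif2ak1 are highest in G2/M, Eif2ak3 and Eif3k are highest in G1 and lowest in G2/M, Eif1b and Eif6 are lowest in S, and Eif2b1 is lowest in G1.

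Among the 9 initiation factors outside the eIF2, eIF2B, eIF3, eIF4 and eIF5A groups, 3 were past 1.5-fold between S and G1, all of them lower in S. Of all genes, 18.3% were lower by as much. Eif1b and Eif2d, among the 3, averaged under 50 CPM, where 52.1% of all genes were past 1.5-fold in either direction. Eif1b (ENSMUSG00000006941, chromosome 9 from 120492606 to 120495327), a copy of the start codon fidelity factor eIF1, had 39.1 and 39.3 CPM (G1), 11.2 and 13.7 CPM (S) and 25.4 and 26.0 CPM (G2/M). It was 3.14-fold lower in S than in G1, -1.65 (-1.81 to -1.50), and 2.06-fold above S in G2/M, 1.04 (0.88 to 1.21). Its paralogue Eif1 had 261 (G1), 254 (S) and 271 CPM (G2/M), so that Eif1b gave 25.6% (G1), 10.1% (S) and 17.8% (G2/M) of the pair's level per length. Eif6 (ENSMUSG00000027613, chromosome 2 from 155819832 to 155826925), which keeps the large ribosomal subunit from joining too early, had 300.0 and 296 CPM (G1), 159 and 156 CPM (S) and 242 and 243 CPM (G2/M). It was 1.90-fold lower in S than in G1, -0.92 (-0.97 to -0.88), and 1.54-fold above S in G2/M, 0.63 (0.58 to 0.67), with columns that did not overlap between phases. Eif2d had 17.9 and 18.4 CPM (G1), 9.78 and 8.81 CPM (S) and 8.06 and 8.53 CPM (G2/M), highest in G1, with -0.96 (-1.16 to -0.77) in S over G1 and -1.13 (-1.33 to -0.92) in G2/M over G1.

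Of the other factors in this set of 9, 4 were higher in S than in G1, namely Eif1a, Eif1ax, Eif5 and Eif5b. Eif1a, which helps the small subunit scan and hold the start codon, had 396 and 380.2 CPM (G1), 468 and 486 CPM (S) and 323 and 324 CPM (G2/M), and its log2 ratio was -0.56 (-0.59 to -0.53) in G2/M over S. Its X-linked paralogue Eif1ax had 284 (G1), 324 (S) and 271 CPM (G2/M), also highest in S, and Eif1a made up 71.5, 72.9 and 68.6% of the pair's level per length in G1, S and G2/M. Eif5, which triggers GTP hydrolysis on eIF2, had 486 (G1), 718 (S) and 637 CPM (G2/M), with 0.56 (0.54 to 0.59) in S over G1, just inside 1.5-fold. Eif5b, the GTPase that joins the subunits, had 311 (G1), 363 (S) and 387 CPM (G2/M), although 16.8% of its exon bases are shared with Rev1 on the opposite strand. Eif2a, a separate factor that is not the alpha subunit of eIF2, had 85.7 (G1), 77.7 (S) and 55.1 CPM (G2/M), a log2 ratio of -0.64 (-0.72 to -0.55) in G2/M over G1. The median log2 ratio was -0.04 in S over G1 and -0.26 in G2/M over G1 over the 9 factors, and -0.04 in G2/M over S over the 8 measured there, without Eif2d.

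Subunits of eIF3, the scaffold that holds the small ribosomal subunit and the mRNA together, were mostly within 1.5-fold between S and G1. Of 14 genes, 9 were lower in S than in G1 and 5 higher, with a median log2 ratio of -0.34, where 49.6% of all genes were higher. Eif3j2 and Eif3k, 2 of the 14, were lower by 1.5-fold or more, where 18.3% of all genes were, so that share was near the background. The 5 higher ones were Eif3a, Eif3c, Eif3e, Eif3h and Eif3j1, at 0.23, 0.41, 0.10, 0.18 and 0.16 in that order. Eif3a (ENSMUSG00000024991, chromosome 19 from 60761116 to 60790693) had 1348 and 1356 CPM (G1), 1581 and 1597 CPM (S) and 1655 and 1651 CPM (G2/M), a log2 ratio of 0.29 (0.27 to 0.31) in G2/M over G1. Eif3b, a core subunit with an RNA-binding domain, had 826 (G1), 728 (S) and 618 CPM (G2/M) and was lowest in G2/M, with -0.42 (-0.44 to -0.39) in G2/M over G1. The core subunits therefore did not share a direction.

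Eif3k (ENSMUSG00000053565, chromosome 7 from 28971373 to 28981814), a small peripheral subunit that partners Eif3l, had 54.6 and 51.4 CPM (G1), 34.1 and 34.9 CPM (S) and 28.1 and 28.8 CPM (G2/M). It was 1.54-fold lower in S than in G1, -0.62 (-0.73 to -0.51), or -0.57 and short of 1.5-fold without the first G1 column, and 1.86-fold lower in G2/M than in G1, -0.90 (-1.01 to -0.78). Eif3l, its partner, had 186 (G1), 142 (S) and 189.5 CPM (G2/M), low in S alone. Eif3f, Eif3g, Eif3d, Eif3i and Eif3m were lower in S than in G1 by log2 ratios of -0.40, -0.51, -0.49, -0.30 and -0.54 in that order, and among these Eif3f and Eif3m stayed lower in G2/M than in G1, with -0.44 and -0.38, as did Eif3d (-0.22) and Eif3g (-0.12), while Eif3i did not (0.25). Of the exon bases of Eif3d, 32.7% are shared with Gm17638 on the opposite strand. The loosely bound subunit eIF3j has near-identical genes, Eif3j1 with 124 (G1), 139 (S) and 126 CPM (G2/M) and Eif3j2 with 200.5 (G1), 126 (S) and 118 CPM (G2/M). The counts of both are uncertain for that reason. Per length the highest eIF3 subunit, Eif3a, exceeded the lowest 12.3-fold (G1), 16.9-fold (S) and 14.8-fold (G2/M).

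Factors of the eIF4 group, which bind the cap and open the leader, stayed within 1.5-fold in all but 1 case. None of its 11 measured members was past 1.5-fold between S and G1 or between G2/M and S, and 1 of 11 was between G2/M and G1, with medians of -0.03, 0.02 and 0.03. Of all genes, 18.5% were higher and 18.3% lower by that much in S over G1, 16.1% and 15.4% in G2/M over S, and 20.2% and 19.6% in G2/M over G1. Such ratios are fewer at higher levels, and from 200 to 1000 CPM they were 10.5%, 7.05% and 14.0% of genes in both directions together. Eif4e (ENSMUSG00000028156, chromosome 3 from 138526179 to 138559696), which binds the cap, had 238 and 238 CPM (G1), 231 and 227 CPM (S) and 256 and 261 CPM (G2/M), and its log2 ratio was 0.12 (0.08 to 0.16) in G2/M over G1. Eif4g1, the scaffold that joins eIF4E, eIF4A and poly(A)-binding protein, had 679 and 665 CPM (G1), 797 and 797 CPM (S) and 811 and 808 CPM (G2/M), lowest in G1, with 0.25 (0.22 to 0.27) in S over G1. Eif4a1 had 2004 and 2002 CPM (G1), 1736 and 1743 CPM (S) and 2047 and 2052 CPM (G2/M), lowest in S, with -0.20 (-0.22 to -0.19) in S over G1 and 0.24 (0.22 to 0.25) in G2/M over S. Near-copies can make counts of this family uncertain, and the pseudogene Eif4a-ps4 held 203 fragments (G1), 215 (S) and 110 (G2/M).

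The exception was Eif4a3, the helicase of the exon junction complex that marks spliced mRNA. It had 184 (G1), 136 (S) and 107 CPM (G2/M), 1.73-fold lower in G2/M than in G1, -0.79 (-0.85 to -0.73). It gave 12.7% (G1), 10.6% (S) and 7.51% (G2/M) of the level per length of the 3 eIF4A genes, and Eif4a1 gave 67.5, 66.4 and 70.7%. Among the eIF4G genes, Eif4g2, which acts in cap-independent initiation, exceeded Eif4g1 in each phase, with 56.1, 55.3 and 57.1% of their summed level per length in G1, S and G2/M. Among the eIF4E genes, Eif4e gave 51.9, 55.0 and 55.6%, ahead of the cap-binding repressor Eif4e2 and of Eif4e3. Eif4b and Eif4h, which assist the helicase, had log2 ratios between -0.07 and 0.05 in every comparison.

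The eIF4E-binding proteins keep eIF4E from eIF4G until mTORC1 phosphorylates them. Eif4ebp1 (ENSMUSG00000031490, chromosome 8 from 27260327 to 27275656) had 54.3 and 54.3 CPM (G1), 52.4 and 54.5 CPM (S) and 47.0 and 49.5 CPM (G2/M), and its log2 ratio in S over G1, -0.02 (-0.12 to 0.07), did not leave 0 by more than counting error. Eif4ebp2 had 55.3 and 55.3 CPM (G1), 66.4 and 66.1 CPM (S) and 44.2 and 43.4 CPM (G2/M), highest in S, and was 1.51-fold lower in G2/M than in S, -0.60 (-0.69 to -0.50). Eif4enif1, which carries eIF4E into the nucleus and to P-bodies, had 65.3 (G1), 99.6 (S) and 75.1 CPM (G2/M) and was 1.52-fold higher in S than in G1, 0.61 (0.53 to 0.69). In G2/M all 3 measured genes of this group stood below their S level. Eif4ebp3 had 2 fragments in S and none elsewhere.

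The genes named for eEF1 subunits and for eEF2 were lowest in S for all but 1 of 6 measured. Of all genes, 30.9% were lowest in S. As a group they took 0.851% (G1), 0.751% (S) and 0.873% (G2/M) of fragments. Eef1a1 (ENSMUSG00000037742, GRCm38 chromosome 9 from 78478449 to 78489151) had 4398 and 4385 CPM (G1), 4074 and 4046 CPM (S) and 4514 and 4507 CPM (G2/M), a log2 ratio of -0.11 (-0.12 to -0.10) in S over G1 and 0.15 (0.14 to 0.16) in G2/M over S. Eef2 (ENSMUSG00000034994, chromosome 10 from 81176631 to 81182507) had 2165 and 2152 CPM (G1), 1917 and 1884 CPM (S) and 2198 and 2197 CPM (G2/M), with -0.18 (-0.20 to -0.17) in S over G1 and 0.21 (0.20 to 0.22) in G2/M over S. These differences are small, 1.08-fold and 1.14-fold lower in S than in G1, and the S columns of both genes lay below all other columns. Eef1b2 had 1077 and 1076 CPM (G1), 854 and 845 CPM (S) and 965 and 963 CPM (G2/M), again lowest in S. Eef1g and Eef1d, the further subunits of the eEF1A exchange complex, had log2 ratios of -0.58 (-0.61 to -0.54) and -0.45 (-0.49 to -0.41) in S over G1 and of 0.54 (0.50 to 0.57) and 0.32 (0.28 to 0.36) in G2/M over S. The group's median was -0.26 in S over G1, 0.26 in G2/M over S and -0.01 in G2/M over G1, the last becoming 0.02 when libraries were scaled by size alone. Eef1a1 has many processed copies in the mouse genome, so its counts are uncertain to an extent that was not tested.

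Eef1e1 was the exception in that group. It encodes a scaffold protein of the multi-tRNA synthetase complex, also known as AIMP3 or p18, and its gene (ENSMUSG00000001707) lies on chromosome 13 from 38645698 to 38659028. Eef1e1 had 33.7 and 31.8 CPM (G1), 39.9 and 41.3 CPM (S) and 81.1 and 79.0 CPM (G2/M). It was 1.97-fold above S in G2/M, 0.98 (0.89 to 1.07), and 2.45-fold higher than in G1, 1.29 (1.19 to 1.39), the largest ratio, in the 3 comparisons, of any factor that averaged 50 CPM or more. Its columns did not overlap between phases. Of 22 cytosolic aminoacyl-tRNA synthetases and their scaffold proteins, which share that complex in part, 21 were measured in G2/M over G1, of which 3 were at least 1.5-fold higher and 1 lower, where 20.2% and 19.6% of all genes were.

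Eif5a, which like its paralogue carries the modified residue hypusine, had 1253 and 1246 CPM (G1), 1036 and 1023 CPM (S) and 1266 and 1267 CPM (G2/M), lowest in S with -0.28 (-0.30 to -0.26) in S over G1 and 0.30 (0.28 to 0.32) in G2/M over S. Eif5a2 had 48.1 (G1), 63.3 (S) and 52.5 CPM (G2/M) and went the other way, highest in S. Eif5a gave 98.2, 97.2 and 98.1% of the pair's level per length in G1, S and G2/M. Eef2k, the kinase that stops eEF2 from moving the ribosome, had 51.1 and 51.4 CPM (G1), 69.5 and 70.8 CPM (S) and 48.6 and 45.2 CPM (G2/M), highest in S, with 0.45 (0.36 to 0.54) in S over G1 and -0.58 (-0.67 to -0.49) in G2/M over S. Eef2k and its target Eef2 thus stood in opposite order in S, where Eef2 was lowest.

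Eef1akmt2, a lysine methyltransferase of eEF1A, had 10.9 and 12.7 CPM (G1), 25.1 and 26.9 CPM (S) and 18.3 and 18.0 CPM (G2/M). It was 2.20-fold higher in S than in G1, 1.14 (0.96 to 1.31), at a level under 50 CPM, where 52.1% of all genes were past 1.5-fold. Eef1akmt1, another methyltransferase of eEF1A, had 17.1 (G1), 17.7 (S) and 24.3 CPM (G2/M), highest in G2/M. Eef1akmt3 had 1 fragment (G1), 2 (S) and 146 (G2/M), or 0.0627 and 0 CPM, 0.0562 and 0.0554 CPM, and 3.78 and 4.27 CPM in the columns of those phases, under the minimum level throughout. It overlaps Mettl1 over 100 exon bases on the opposite strand. Eef2kmt, which methylates eEF2, had 161, 269 and 134 fragments and also stayed under the minimum. Eif1ad, a protein with an eIF1A-like domain that acts in maturation of the small ribosomal subunit, had 88.2 and 81.5 CPM (G1), 144 and 140.1 CPM (S) and 104 and 107 CPM (G2/M) and was 1.68-fold higher in S than in G1, 0.74 (0.68 to 0.81).

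**Figure D5:**
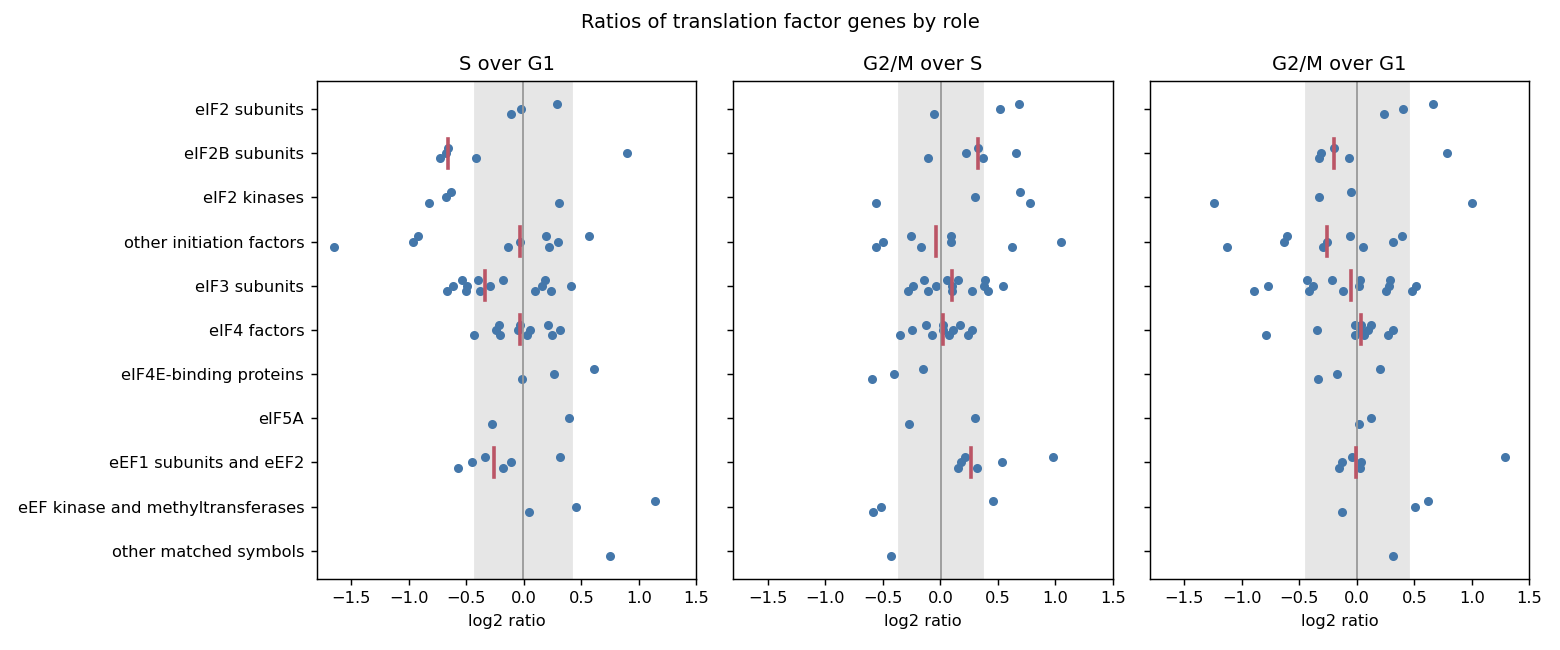
Log2 ratio of every measured factor (points) by role, for S over G1, G2/M over S and G2/M over G1, with a bar at the median of roles with at least 5 members and a grey band from the 25th to the 75th percentile of all genes. In S over G1, 4 of 5 eIF2B subunits lie at -0.42 or lower and the median of the eIF3 subunits at -0.34, while the eIF4 factors centre on -0.03.

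The start sites of the genes were read to show what the highest and the most different factors carry there. Of the 68 genes, 52 matched a window of 250 bases before to 50 after a start in the RefSeq table of GRCm38.p6. The search was for a run of C and T of at least 8 bases that begins with C and reaches within 10 bases of the start. It was found in 12 of 52 factors (23.1%), in 46% of 63 cytosolic ribosomal protein genes and in 12.5% of 27025 genes. Such a run is known at the very start of many mRNAs of ribosomal proteins and elongation factors, but the search did not require that position. The run of Eif3m ends before the annotated start. The elongation factor genes Eef2 and Eef1b2 had runs of only 2 and 3 bases and were not counted. The run is in capitals in these 4 examples, which show 25 bases before to 20 after the start of Eef1a1 (chr9:78481705-78481749, minus strand), Eif2b5 (chr16:20498792-20498836, plus strand), Eif3f (chr7:108934390-108934434, plus strand) and Eif3m (chr2:105017008-105017052, minus strand), each read 5′ to 3′ along the gene.
Eef1a1: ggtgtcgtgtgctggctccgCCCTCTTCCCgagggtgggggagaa
Eif2b5: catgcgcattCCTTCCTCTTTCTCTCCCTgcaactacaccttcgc
Eif3f: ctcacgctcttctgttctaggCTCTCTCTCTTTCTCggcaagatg
Eif3m: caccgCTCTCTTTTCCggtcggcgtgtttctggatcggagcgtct
The 10 measured factors with such a run had a median log2 ratio of -0.25 in S over G1, with 3 higher and 7 lower, and the 38 with a window but no run had -0.04, with 17 higher and 21 lower. In G2/M over S the medians were 0.15 with a run and 0.07 without. This is a description of letters in a window, and whether they are the first bases of the RNA was not tested.

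The hexamer CACGTG, the E-box bound by MYC and its relatives, lay in the window of 12 of 52 factors (23.1%), of 9.52% of the ribosomal protein genes and of 8.09% of all genes. It reads the same on both strands. The heptamer CCGGAAG of ETS factors, searched on both strands, lay in 32.7% of factors and 9.93% of all genes, TATAAA in 9.62% and 15.7%, and TGACGTCA in 1.92% and 2.03%. For these motifs and for the run of C and T, all genes means the 27025 with a window, whatever their RNA level. A gene was counted if any of its windows matched, and some genes have several. Shares over genes at the minimum level were not computed, so these percentages are no measure of enrichment among such genes. The 12 factors with an E-box were Eef2, Eef2k, Eif1b, Eif3a, Eif3f, Eif3k, Eif4a1, Eif4e, Eif4g1, Eif4h, Eif5a and Eif5a2. The hexamer is in capitals, with 20 bases on either side, for Eef2 (chr10:81176568-81176613, plus strand), Eif1b (chr9:120492562-120492607, plus strand), Eif3k (chr7:28981907-28981952, minus strand), Eif4e (chr3:138527184-138527229, plus strand) and Eif4g1 (chr16:20672653-20672698, plus strand), chosen to show it in an elongation factor, in the genes of eIF4E and eIF4G1 and in genes that were lower in S.
Eef2: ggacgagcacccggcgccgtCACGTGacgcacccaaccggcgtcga
Eif1b: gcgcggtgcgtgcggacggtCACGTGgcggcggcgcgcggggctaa
Eif3k: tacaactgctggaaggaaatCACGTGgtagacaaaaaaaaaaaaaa
Eif4e: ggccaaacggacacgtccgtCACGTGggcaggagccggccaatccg
Eif4g1: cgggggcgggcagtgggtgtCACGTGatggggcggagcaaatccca
The 12 factors with the hexamer had a median log2 ratio of -0.12 in S over G1, where the 36 measured factors with a window but no hexamer had -0.08. In G2/M over S the medians were 0.04 with and 0.09 without. Eif1b and Eif4g1, both with the hexamer, stood at -1.65 and 0.25 in S over G1.

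Other genes of the pathway were described by lists. All 81 measured cytosolic ribosomal protein genes were lower in S than in G1, where 49.6% of all genes were higher, and their median log2 ratio was -0.40. Past 1.5-fold were 19 of the 81, where 18.3% of all genes were lower by as much. That share falls with level. From 200 to 1000 CPM, where many of the ribosomal protein genes lie, 10.5% of genes were past 1.5-fold in both directions together. The ribosomal protein genes were not compared with genes of like exon length. In the shortest quartile, all genes that averaged 50 CPM or more had a median of -0.21 in S over G1. In G2/M over S 62 of 79 were higher, where 50.5% of all genes were, with a median of 0.23. Rpl29 had 16.3 (G1), 2.04 (S) and 6.31 CPM (G2/M), and Rps3a2, a copy of Rps3a1 whose counts are uncertain for that reason, had 15.2 (G1), 7.84 (S) and 2.98 CPM (G2/M). Genes of mTORC1 and S6 kinase signalling, the pathway that controls the eIF4E-binding proteins, had a median of 0.47 in S over G1, with 6 of 13 at least 1.5-fold higher, where 18.5% of all genes were, and 1 lower, where 18.3% were. Most of those 6 averaged under 50 CPM in G1 and S, where 52.1% of all genes were past 1.5-fold in either direction. The list holds activators and inhibitors of the pathway alike, so its median gives no direction of signalling. Mknk1, a kinase of eIF4E, had 10.01 (G1), 29.2 (S) and 32.1 CPM (G2/M), with 1.55 (1.36 to 1.73) in S over G1. Rptor, the substrate-binding subunit of mTORC1, had 35.8 (G1), 63.8 (S) and 80.4 CPM (G2/M), with 1.17 (1.07 to 1.27) in G2/M over G1. Outputs of the integrated stress response, the programme that the eIF2 kinases start, had 0 of 6 measured genes past 1.5-fold in S over G1 and 1 of 6 lower in G2/M over G1, where 19.6% of all genes were. That gene was Sesn2, an inhibitor of mTORC1, with 13.4 (G1), 12.4 (S) and 4.08 CPM (G2/M), and Ppp1r15a, which recruits the eIF2 phosphatase, had 50.6 (G1), 34.1 (S) and 33.8 CPM (G2/M). Of the 8 genes listed, Trib3 and Chac1 stayed under the minimum level and are not in these counts. Trib3 had 60 (G1), 324 (S) and 217 fragments (G2/M), with 2.27 (1.87 to 2.69) in S over G1. Chac1 had 93 (G1), 262 (S) and 193 fragments (G2/M), with 1.33 (0.99 to 1.69).

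In the lists that follow, counts past 1.5-fold in S over G1 stand against 18.5% of all genes higher and 18.3% lower, and with 22 genes or fewer to a list they are given as counts only. Termination, recycling and rescue factors had 2 of 7 lower in S than in G1 by 1.5-fold or more and none higher. Pelo, which frees stalled ribosomes, had 13.0 (G1), 4.13 (S) and 8.22 CPM (G2/M), and Denr, which acts in recycling, had 238 (G1), 156 (S) and 172 CPM (G2/M). Among poly(A)-binding proteins and their regulators 1 of 5 was lower in S than in G1 by that much, Paip2, a repressor of poly(A)-binding protein, with 108 (G1), 48.0 (S) and 78.3 CPM (G2/M), and Paip1, an activator, had 343 (G1), 301 (S) and 218 CPM (G2/M). Enzymes of hypusine and diphthamide, the modified residues of eIF5A and eEF2, had 2 of 7 higher and 3 of 7 lower, including Dph6 with 10.7 (G1), 56.0 (S) and 64.4 CPM (G2/M) and Dph1 with 6.33 (G1), 10.7 (S) and 4.36 CPM (G2/M). Mitochondrial translation factors had 0 of 8 higher and 1 of 8 lower, Guf1, with 48.6 (G1), 30.9 (S) and 67.0 CPM (G2/M), and Mtrf1l had 16.1 (G1), 18.6 (S) and 10.2 CPM (G2/M). Eefsec, the elongation factor for selenocysteine, had 26 fragments (G1), 290 (S) and 799 (G2/M), and Secisbp2, its partner, had 12.3 (G1), 10.3 (S) and 13.6 CPM (G2/M). Among the synthetases, 1 of 22 was higher in S and 0 lower. Iars had 131 (G1), 192 (S) and 252 CPM (G2/M), and Wars had 71.4 (G1), 76.7 (S) and 41.2 CPM (G2/M).

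The remaining factors complete the account. Eef1a2, the form of eEF1A known from adult muscle and neurons, had no fragment in any column, and neither had Eif4e1b, Eif2s3y or Eif2c5, which the symbol takes in although the RefSeq table gives Ago5 as a synonym. Eif4g3, a further eIF4G, had 87.2 (G1), 108 (S) and 91.2 CPM (G2/M), and Eif4a2, a further cytosolic eIF4A, had 727 (G1), 741 (S) and 778 CPM (G2/M). Eif4e2 had 176 (G1), 149 (S) and 179 CPM (G2/M), and Eif4e3 had 33.5 (G1), 28.7 (S) and 26.4 CPM (G2/M). All 4 of these paralogues lay within 1.5-fold in every comparison. Eif4b had 1103 (G1), 1142 (S) and 1088 CPM (G2/M), Eif4g2 had 946 (G1), 1093 (S) and 1177 CPM (G2/M), and Eif4h had 331 (G1), 324 (S) and 329 CPM (G2/M). Eif4b, Eif4g2 and Eif4h also differed by less than 1.5-fold between all phases. In all, 24 factors share exon bases with another gene, 8 of them over more than 10% of their length, and 7 did not reach the minimum level or had no fragment.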

How the data were processed

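The authors deposited counts of fragments per gene. Per the file headers, featureCounts 1.5.0-p3 counted read pairs on exons and summed them by gene, with Ensembl's GRCm38 annotation. Its command sets no option for strand, overlapping genes or multiply mapping reads, so counts of overlapping or antisense genes and of near-identical copies are uncertain. Per the labels' protocols, both reads of a pair were run for 101 cycles. Per the submitters' processing notes HISAT2 2.1.0 and SAMtools 1.6 were used, in a role not stated. The exon length per gene is a further deposited value, per the file headers. Not analysed here are 24 ChIP-seq samples.

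Symbols were matched for 45143 of 46078 genes. The 2 columns of each phase were summed, since they differed by about counting noise, and scaled to CPM by TMM in edgeR 4.0.16 under R 4.3.3, with factors between 0.990 and 1.01 over 13113 genes. FPKM here is scaled CPM per kilobase of deposited exon length. A ratio was taken for genes that reached 10 CPM in either phase compared, and counted as higher or lower at 1.5-fold, with no test. Intervals are exact binomial ones from scipy 1.17.1 and, since PCR copies are not independent molecules, cover counting error only. Values per column are given for the 6 highest factors per length, the 3 largest ratios in each direction of each comparison and 11 fixed factors, and 2 genes past the minimum level are named per list. The factors and lists were chosen with earlier results of these data known. The ratio and interval code was tested on simulated data. Alternatives were other scalings, minimum levels and folds, and each column left out in turn. RefSeq start windows carry the build GRCm38.p6.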

Additional observations from a re-analysis of the deposited data

How the results depend on the processing

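Of 126 counts and medians under the alternatives, 110 kept their value within the set tolerance (counts within 1.5 times) and 16 moved. Between G2/M and S the count of lower factors was 1, and it was 0 with library size alone, 2 with no minimum level and 1 to 3 with a column left out, 3 without the first G2/M column and 3 without the first S column. The other counts and medians stayed close with a column left out: 10 to 12 lower and 4 higher in S over G1, 7 higher in G2/M over S, 5 higher and 7 lower in G2/M over G1, and medians of -0.11 to -0.10, 0.09 to 0.12 and -0.01 to 0.03 in the same order. At a mean of at least 50 CPM, 2 were higher and 3 lower in S over G1 with a median of -0.038, 4 higher in G2/M over S, and 3 higher and 3 lower in G2/M over G1. At 2-fold, 1 was higher and 1 lower in S over G1, 1 higher and 0 lower in G2/M over S, and 1 higher and 2 lower in G2/M over G1. Both settings count fewer genes by construction. The causes of the other shifts were not tested.

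For 25 named factors, each with 3 ratios under 8 alternatives, 582 values stayed within their counting interval and 18 moved, by at most 0.16 on the log2 scale and with no change of sign in a ratio past 1.5-fold. The largest was Eif1b in S over G1, at -1.82 without the second S column. By factor, the calls at 1.5-fold that were lost were those of Eif4ebp2 (-0.58, G2/M over S) and Eif1b (-0.58, G2/M over G1) with library size alone, and of Eif3k (-0.57, S over G1) and Eef1akmt2 (0.52, G2/M over G1) without the first G1 column. The 2 further lower factors in G2/M over S without a column were Eef2k and Eif2ak3. No paired analysis was possible because the numbered columns of a phase, which differed by about counting noise, were summed and the results come from no test. Depth limits the factors of low level: Eif2d rested on 581, 333 and 301 fragments in G1, S and G2/M.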
